A study of Mus musculus with 7 samples.

Results

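The 39 genes described here are markers and regulators of endothelial cells, the cells that line blood vessels, and of haemangioblasts, the mesodermal progenitors that give rise to endothelium and to blood. They form a list of names, and a gene entered when a non-control probe of the array carried its symbol. All 39 were on the array, with 50 probes between them, out of 27113 genes with a named probe. In early mesoderm the ETS factor Etv2, with Tal1 and Lmo2, starts the endothelial and blood programme, and cells that take it up express Kdr, the main receptor for vascular endothelial growth factor (VEGF). ETS factors such as Fli1 and Erg and the SoxF factors Sox7, Sox17 and Sox18 then maintain endothelial identity, and junction proteins such as Cdh5, Cldn5 and Pecam1 seal the vessel wall. Growing kidney tissue is supplied by vessels that form in and around its mesenchyme.

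The study used C57BL6J mouse embryos with a GFP knock-in at Osr1, a gene of the intermediate mesoderm from which the kidney forms, and sorted their cells by flow cytometry. From E8.5 embryos came GFP-positive and GFP-negative cells. From the caudal part of E9.5 embryos came gated cells (positive for Osr1-GFP and for integrin alpha 8, encoded by Itga8, and negative for Pdgfra), the GFP-positive cells outside that gate, called non-gated cells below, and GFP-negative cells. From the E11.5 metanephric mesenchyme, the tissue that makes nephrons, came gated cells and non-gated cells. All 7 populations carried the knock-in, including those sorted as GFP-negative, and whether it stood on 1 or on both alleles and how many embryos were pooled are not given in the sources used here. The comparisons set the sorted populations of a stage against each other, and gated and non-gated cells of E11.5 against those of E9.5.

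Each population was measured on 1 single-colour Agilent array, so every difference below is between 2 arrays, has no replicate check and carries no test. A level is a probe's log2 signal relative to the 75th percentile of signal on its own array, a difference is one level minus another, and a gene is called higher or lower when it differs at least 2-fold. A gene was measured in a comparison when it was well above background on at least 1 of the 2 arrays. A dim value was raised to the lowest level that counted as well above background on its array where that was higher, and the fold is then written as "at least". The 399 probes spotted 10 times had a median SD of 0.13 in log2 signal within an array, or 0.18 for a difference, which covers spot error only. Between 56.2% and 84.1% of spots were well above background, and arrays correlated at 0.920 to 0.966 over all probes. The E9.5 gated and E9.5 GFP-negative arrays shared 1 slide and the other 5 arrays another. The sort was visible in the levels: Osr1 stood at 0.85 in E8.5 GFP-positive cells and was not well above background in GFP-negative cells of either E8.5 or E9.5, and Pdgfra was 15.5-fold lower in gated than in non-gated E9.5 cells. Six2, a marker of nephron progenitors, was 205-fold higher in gated than in non-gated E11.5 cells.

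The probes of Etv2 and one of Kdr are shown because later results turn on how well probes of 1 gene agree. The 2 probes of Etv2 lie on mouse build mm9, minus strand, at chr7:31418776-31418835 and chr7:31419633-31419692, and the Kdr probe at chr5:76330395-76330454, minus strand. Whether they fall in coding sequence or in a UTR was not assigned, since no mm9 annotation was used. They read 5′ to 3′, as printed on the array:
Etv2, probe with the higher mean: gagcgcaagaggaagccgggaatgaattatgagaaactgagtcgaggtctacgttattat
Etv2, second probe: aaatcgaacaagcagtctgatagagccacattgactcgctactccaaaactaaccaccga
Kdr, probe with the higher mean: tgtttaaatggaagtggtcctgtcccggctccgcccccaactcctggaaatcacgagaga
The Etv2 probes moved together over the 7 arrays, while this Kdr probe stayed nearly level where the second Kdr probe did not.

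The 39 genes were highest at E8.5 and in the E9.5 gate and lowest at E11.5. On the array of E9.5 gated cells all 39 were well above background. The count was 36 and 34 in GFP-positive and GFP-negative E8.5 cells, 38 and 36 in non-gated and GFP-negative E9.5 cells, and 26 and 22 in gated and non-gated E11.5 cells. Over all genes the share well above background ran from 60.3% (E8.5 GFP-negative) to 85.4% (E9.5 non-gated), and it was 74.5% and 75.6% on the E11.5 arrays, so the fewer detected members there stood beside an ordinary share of all genes. When each gene was centred on its own mean over the 7 arrays, the median of the 39 was 0.80 and 0.42 in GFP-positive and GFP-negative E8.5 cells, 0.93, 0.21 and 0.17 in gated, non-gated and GFP-negative E9.5 cells, and -1.42 and -1.64 in gated and non-gated E11.5 cells. Of the 39 genes, 12 had their highest level in E8.5 GFP-positive cells and 12 in E9.5 gated cells, while 26 had their lowest in E11.5 non-gated cells. In sorted bulk samples such as these, fewer endothelial cells and less RNA per cell cannot be told apart.

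**Figure D1:**
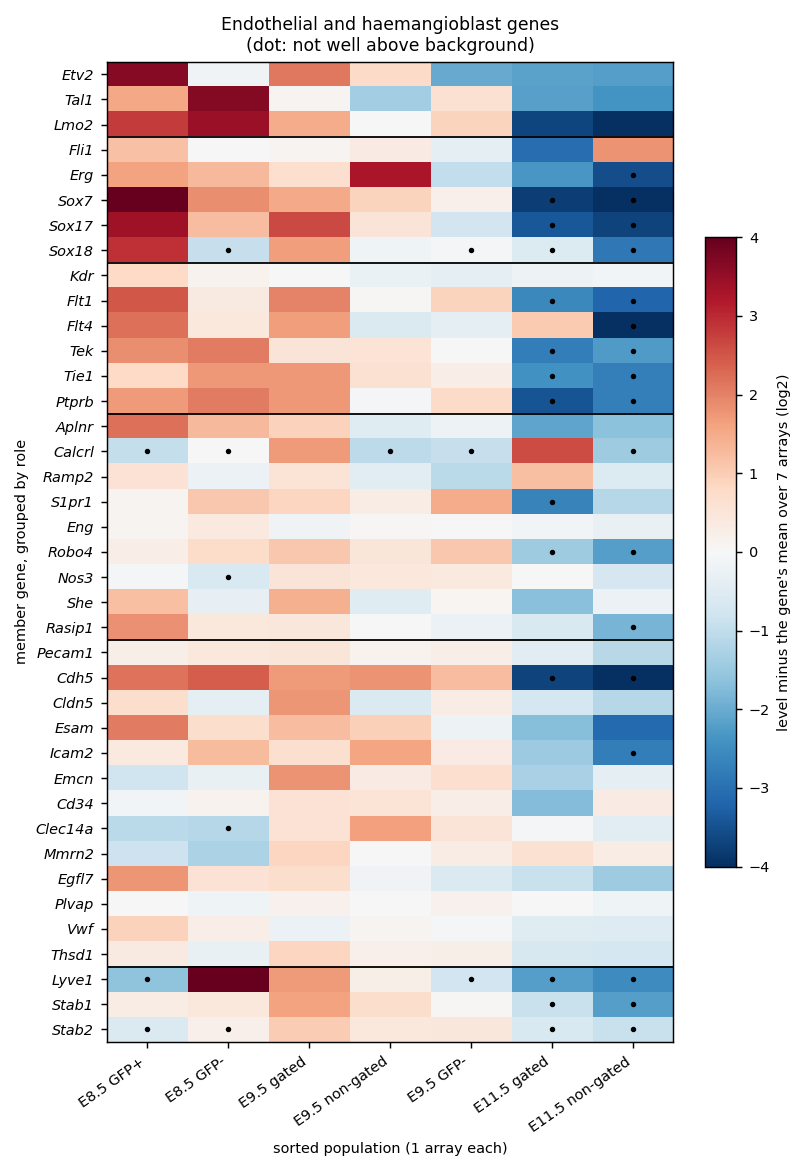
Levels of the 39 genes on the 7 arrays, each gene centred on its mean over the arrays (log2, colour scale ending at 4 in either direction), with genes grouped by role and populations in columns; values not well above background carry a dot. All 39 genes are well above background in E9.5 gated cells, against 26 and 22 in gated and non-gated E11.5 cells.

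At E8.5, 12 of the 37 members measured were higher in GFP-positive than in GFP-negative cells, against 7.03% of all genes measured, and 2 were lower, against 6.08%. The 12 were Etv2, Fli1, Sox7, Sox17, Sox18, Flt1, Flt4, She, Rasip1, Cldn5, Esam and Egfl7, and the 2 were Tal1 and Lyve1. The median difference was 0.33 for the members and 0.00 for all genes. The 14 genes of primitive red cells, among them the embryonic globins Hba-x, Hbb-bh1 and Hbb-y, were all lower in GFP-positive cells, where their summed signal was 8.38 times the array's 75th percentile, against 2893 times in GFP-negative cells. Of 11 measured genes of haematopoietic progenitors 7 were lower in GFP-positive cells and none was higher. With normexp background correction, which shrinks differences of dim probes, 6 members were higher, beside 597 of 20085 genes. How much blood cells in the GFP-negative sort add to these differences was not tested.

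At E9.5 many members stood higher in gated cells than in either of the other sorts. Against non-gated cells, 15 of 39 members were higher, beside 5.14% of all genes, and 2 (Erg and Clec14a) were lower, beside 9.37%, with a median difference of 0.64 for the members and -0.15 for all genes. Against GFP-negative cells, 17 of 39 were higher, beside 5.67% of all genes, and 0 were lower, beside 6.41%, with medians of 0.62 and 0.01. These comparisons share the gated array, so they are not independent, and 12 members were higher in both: Etv2, Sox17, Sox18, Flt1, Flt4, Tie1, Aplnr, Ramp2, She, Cldn5, Emcn and Lyve1. Tal1, Lmo2 and Ptprb were higher against non-gated cells alone, and Erg, Sox7, Esam, Egfl7 and Stab1 against GFP-negative cells alone. Between non-gated and GFP-negative E9.5 cells there was less: 6 of 38 members (Etv2, Erg, Sox17, Esam, Icam2 and Clec14a) were higher, beside 8.57% of all genes, and 2 (Tal1 and S1pr1) lower, beside 5.17%, with medians of 0.10 for the members and 0.13 for all genes. That balance turned with the scaling: unscaled signal gave 4 higher and 6 lower with a median of -0.087, and quantile normalization 6 higher and 4 lower with a median of -0.076. The mean of a gene's probes gave 4 higher and 2 lower, beside 2129 and 1147 of 23770 genes. The Etv2 and Sox17 calls in this pair each rested on 1 probe, since a second probe of each did not pass 2-fold. The red cell genes had a summed signal of 2.71 times the 75th percentile in gated cells, 14.7 times in non-gated cells and 1577 times in GFP-negative E9.5 cells, with 7, 12 and 14 of the 14 well above background. With normexp, 9 members were higher in the gate against non-gated cells and 8 against GFP-negative cells. Over all genes normexp left 344 of 23598 and 403 of 21485 higher in these comparisons. The gated and GFP-negative arrays shared a slide, while the non-gated array lay on the other, so slide and sort cannot be told apart in the comparisons with non-gated cells.

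**Figure D2:**
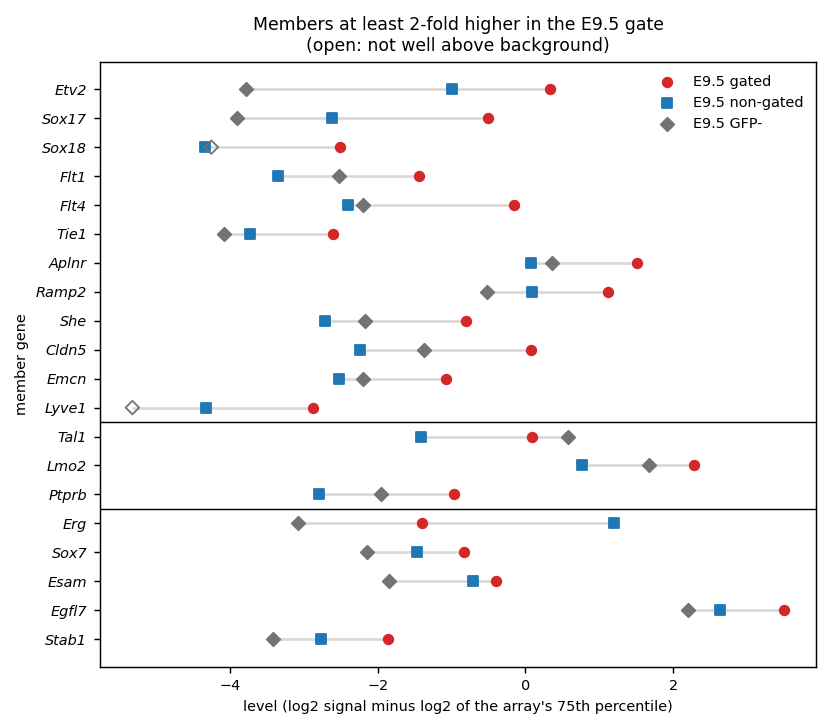
Levels in E9.5 gated cells, non-gated cells and GFP-negative cells (log2 signal minus log2 of the array's 75th percentile, 1 array each) for the 20 members called higher in the gate; open symbols are not well above background. The 12 genes in the top block are higher in the gate against both other sorts, the 3 in the middle against non-gated cells alone and the 5 at the bottom against GFP-negative cells alone; Erg has its highest level in non-gated cells, at 1.20.

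At E11.5, 27 members were measured in the gated or the non-gated cells. Of these, 6 (Lmo2, Flt4, Calcrl, Ramp2, Rasip1 and Esam) were higher in gated cells, beside 10.5% of all genes, and 4 (Fli1, S1pr1, She and Cd34) were lower, beside 9.42%. The median difference was 0.31 for the members and 0.15 for all genes. The other 12 members were well above background on neither array, among them Cdh5, Tek, Tie1, Flt1, Sox7, Sox17 and Sox18. With normexp 2 members were higher and 2 lower, with detection on both arrays 3 and 3, and with no filter 11 and 4. Over all genes the same settings gave 744 and 830 of 21675, 1557 and 1349 of 18993, and 3854 and 2608 of 27113. The members' median was 0.096 on unscaled signal.

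Across stages the members were lower at E11.5. In gated cells 28 of 39 were lower at E11.5 than at E9.5, beside 11.9% of all genes, and 0 were higher, beside 6.05%. Their median difference was -2.30, against -0.03 for all genes. In non-gated cells 24 of 38 were lower at E11.5, beside 22.1% of all genes, and 1 (Fli1) was higher, beside 6.36%, with medians of -1.26 for the members and -0.36 for all genes. By the last value this pair of arrays was shifted over all genes. Quantile normalization, which gives all arrays the same distribution of levels, brought that median to -0.01 by construction. It left 17 members lower in non-gated cells, beside 2323 of 23701 genes. The E11.5 cells came from the metanephric mesenchyme and the E9.5 cells from the caudal part of the embryo, so stage and dissected tissue cannot be told apart. The gated arrays also lay on different slides, and the non-gated arrays on 1 slide. With normexp 9 members were lower in non-gated cells, and with detection required on both arrays 15 were lower in gated and 10 in non-gated cells. Over all genes 1012 of 23693 were lower in non-gated cells with normexp. With detection on both arrays 1424 of 18812 were lower in gated and 2821 of 19954 in non-gated cells. Beside the members' counts, in gated cells 1 of 10 measured genes of haematopoietic progenitors, 3 of 10 red cell genes, 1 of 10 macrophage genes, 2 of 7 platelet genes and 6 of 11 mural genes were lower at E11.5, and 0 were higher. In non-gated cells 6 of 13 genes of haematopoietic progenitors, 6 of 12 red cell genes, 3 of 10 macrophage genes, 1 of 6 platelet genes and 2 of 12 mural genes were lower at E11.5, and Kit, Epor and 4 mural genes were higher. The part of these cells in the members' differences was not tested.

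**Figure D3:**
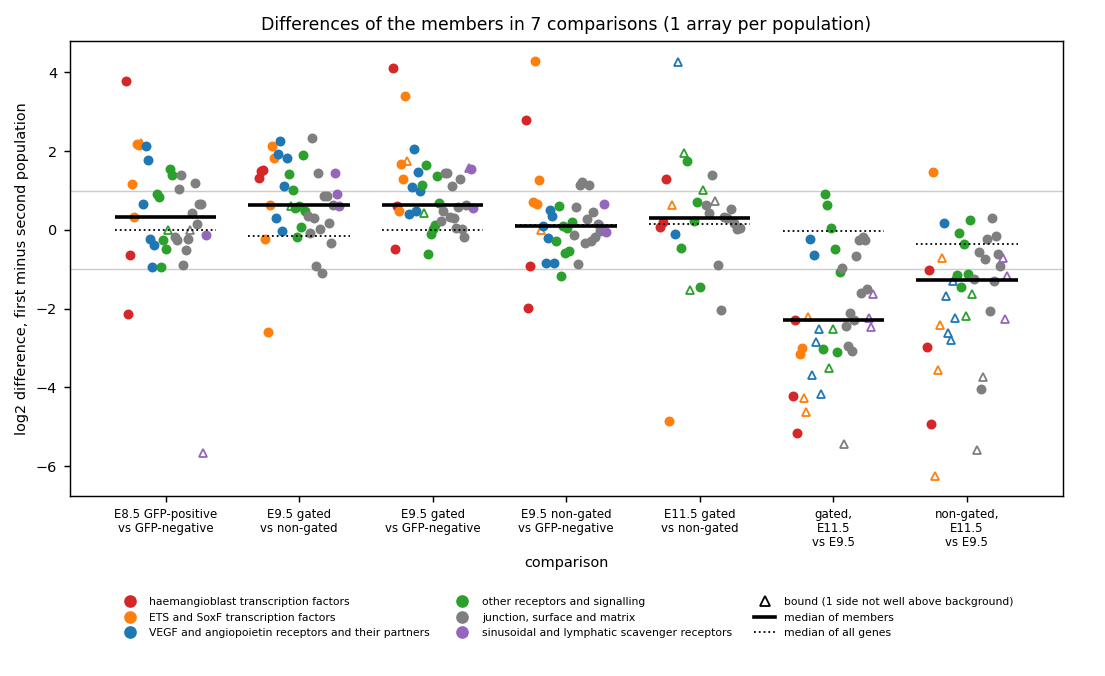
Log2 differences of the measured members in the 7 comparisons, 1 point per gene, with the median of the members, the median of all genes and the 2-fold limits drawn as lines. The medians of the members are 0.33 for E8.5, 0.64, 0.62 and 0.10 for the E9.5 comparisons, 0.31 for E11.5, and -2.30 and -1.26 for E11.5 against E9.5 in gated and non-gated cells.

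The haemangioblast transcription factors did not share 1 pattern. Etv2, an ETS factor that is needed for endothelial and blood cells to form, stood at 1.87 in GFP-positive and -1.90 in GFP-negative E8.5 cells, at 0.33, -0.99 and -3.79 in gated, non-gated and GFP-negative E9.5 cells, and at -3.90 and -3.96 in gated and non-gated E11.5 cells. It was thus higher in GFP-positive cells wherever both were sorted: 13.6-fold at E8.5, and 17.4-fold in gated and 6.97-fold in non-gated cells over GFP-negative E9.5 cells. The gate exceeded the non-gated cells 2.50-fold. The second Etv2 probe gave 9.18-fold at E8.5, 3.92-fold for gated over GFP-negative cells and 3.26-fold for gated over non-gated cells, but 1.20-fold for non-gated over GFP-negative E9.5 cells, so that last difference rests on 1 probe. Within the gate Etv2 was 18.8-fold lower at E11.5 than at E9.5, and 6.58-fold lower on the second probe.

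Tal1 (also called Scl), which with Lmo2 forms a DNA-binding complex in blood and endothelial progenitors, was highest in a GFP-negative sort. Its level was 1.51 in GFP-positive and 3.66 in GFP-negative E8.5 cells, 0.09, -1.41 and 0.58 in gated, non-gated and GFP-negative E9.5 cells, and -2.21 and -2.42 in gated and non-gated E11.5 cells. Lmo2 stood at 3.59 and 4.24 in GFP-positive and GFP-negative E8.5 cells, at 2.28, 0.77 and 1.67 in gated, non-gated and GFP-negative E9.5 cells, and at -2.87 and -4.15 in gated and non-gated E11.5 cells. Both genes are also active in red cell precursors, whose genes were high in the GFP-negative sorts. Against non-gated E9.5 cells the gate was 2.82-fold higher in Tal1 and 2.85-fold higher in Lmo2. In the same pair of arrays 6 of the 12 measured red cell genes were lower in the gate, beside 9.37% of all genes. The 1 that was higher, beside 5.14%, was Alas2 of haem synthesis, at -0.07 in gated and -1.57 in non-gated cells, which is 2.82-fold. The part of red cells in the Tal1 and Lmo2 differences was not tested. Lmo2 was 35.5-fold lower in gated cells of E11.5 than of E9.5, and Tal1 4.90-fold lower.

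The SoxF factors were higher in GFP-positive E8.5 cells and were not well above background at E11.5. Sox7 stood at 1.70 and -0.49 in GFP-positive and GFP-negative E8.5 cells and at -0.84, -1.47 and -2.14 in gated, non-gated and GFP-negative E9.5 cells, and was not well above background at E11.5. Sox17, which is also made by definitive endoderm, stood at 0.25 and -1.91 in GFP-positive and GFP-negative E8.5 cells and at -0.50, -2.63 and -3.90 in gated, non-gated and GFP-negative E9.5 cells, and was likewise not well above background at E11.5. Sox18, needed for lymphatic vessels to form, stood at -1.25 in GFP-positive E8.5 cells, at -2.51 in gated and -4.33 in non-gated E9.5 cells, and was not well above background in the GFP-negative cells of either stage or at E11.5. GFP-positive E8.5 cells were thus 4.56-fold higher in Sox7, 4.46-fold higher in Sox17 and at least 4.61-fold higher in Sox18. In the E9.5 gate Sox17 was 4.36-fold above non-gated cells and 10.6-fold above GFP-negative cells, and its second probe gave 2.06-fold and 1.92-fold. Non-gated E9.5 cells were 2.43-fold above GFP-negative cells in Sox17, but 1.07-fold below them on the second probe.

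The ETS factors Fli1 and Erg, which switch on many endothelial genes, went apart from the rest. Fli1 stood at 0.65 and -0.52 in GFP-positive and GFP-negative E8.5 cells, at -0.43, -0.21 and -0.92 in gated, non-gated and GFP-negative E9.5 cells, and at -3.60 and 1.27 in gated and non-gated E11.5 cells. Its highest level of the 7 arrays was therefore in non-gated E11.5 cells, and it was 29.1-fold lower in gated than in non-gated cells there. Erg stood at -0.45 and -0.79 in GFP-positive and GFP-negative E8.5 cells, at -1.40, 1.20 and -3.08 in gated, non-gated and GFP-negative E9.5 cells, and at -4.40 in gated cells of E11.5, and was not well above background in non-gated E11.5 cells. It was 6.09-fold lower in gated than in non-gated E9.5 cells and 19.4-fold higher in non-gated than in GFP-negative cells. A second Erg probe was well above background on no array. Fli1 is also active in mesenchymal cells, and Erg in cartilage precursors. The mural cell genes Rgs5 and Pdgfrb stood at 4.01 and 3.25 in non-gated E11.5 cells, against -3.40 and -1.22 in gated cells. Of the 12 mural genes 1 was higher and 5 were lower in gated E11.5 cells, beside 10.5% and 9.42% of all genes. The summed signal of the 12 was 341 times the 75th percentile in gated and 363 times in non-gated cells. The part of such cells in the Fli1 difference was not tested.

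Among the receptors for VEGF and angiopoietin, Flt1 and Flt4 had the widest differences within a stage on the probes used in the counts. Flt1, a VEGF receptor that acts largely as a decoy, stood at -0.93 and -3.06 in GFP-positive and GFP-negative E8.5 cells and at -1.44, -3.36 and -2.53 in gated, non-gated and GFP-negative E9.5 cells, and was not well above background at E11.5. It was 4.38-fold higher in GFP-positive E8.5 cells, and in the E9.5 gate 3.78-fold above non-gated and 2.13-fold above GFP-negative cells. Flt4, the receptor for Vegfc and Vegfd, stood at 0.39 and -1.39 in GFP-positive and GFP-negative E8.5 cells, at -0.15, -2.41 and -2.20 in gated, non-gated and GFP-negative E9.5 cells, and at -0.78 in gated cells of E11.5, and was not well above background in non-gated E11.5 cells. In gated cells Flt4 was 1.55-fold lower at E11.5 than at E9.5, one of 11 members within 2-fold in that comparison, and in the E11.5 gate it was at least 19.1-fold higher than in non-gated E11.5 cells.

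Kdr gave a different answer on each of its probes. The probe with the higher mean, whose sequence is given above, stood at 2.44 and 1.78 in GFP-positive and GFP-negative E8.5 cells, at 1.67, 1.38 and 1.27 in gated, non-gated and GFP-negative E9.5 cells, and at 1.45 and 1.55 in gated and non-gated E11.5 cells. The second probe stood at 2.50 and 0.34 in GFP-positive and GFP-negative E8.5 cells, at 0.79, -0.82 and -1.18 in gated, non-gated and GFP-negative E9.5 cells, and at -3.01 in gated cells of E11.5, and was not well above background in non-gated E11.5 cells. On the first probe no Kdr difference passed 2-fold in the 7 comparisons. On the second, Kdr was 4.47-fold higher in GFP-positive E8.5 cells, 3.06-fold higher in gated than in non-gated and 3.93-fold higher than in GFP-negative E9.5 cells, and 13.98-fold lower in gated cells of E11.5 than of E9.5. The first probe was used in all counts because it had the higher mean. It had 1 spot per array, while the second probe was spotted 10 times.

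**Figure D4:**
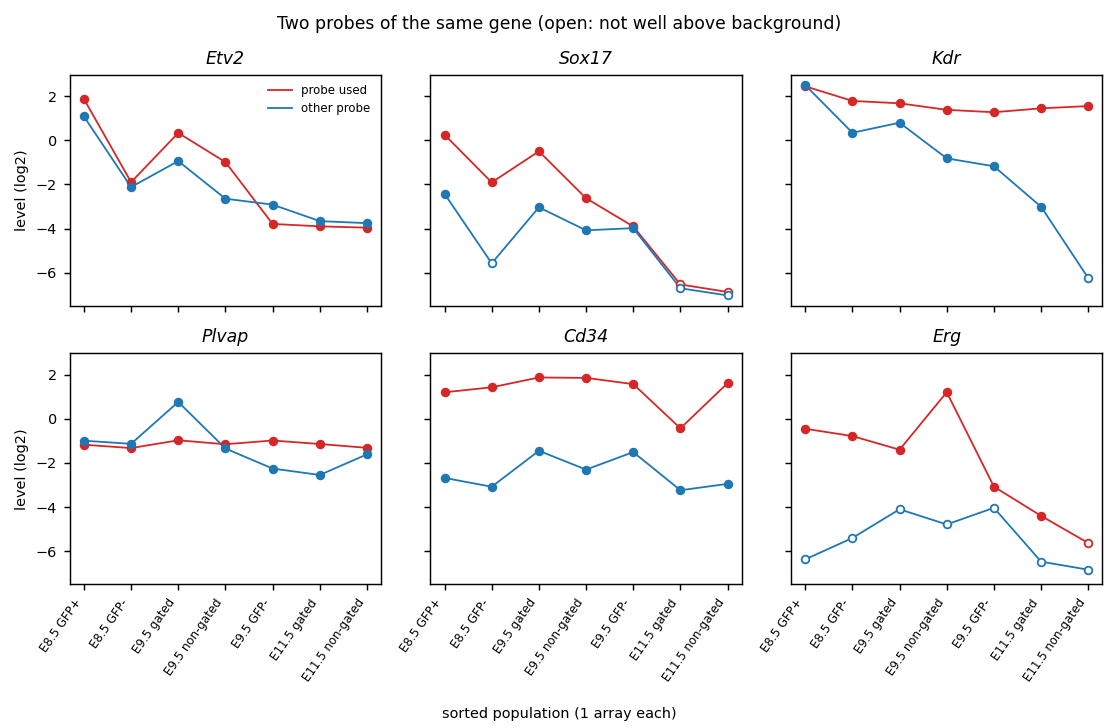
Levels of 2 probes each of Etv2, Sox17, Kdr, Plvap, Cd34 and Erg on the 7 arrays (log2 signal minus log2 of the array's 75th percentile); open symbols are not well above background, and the heights of different probes cannot be compared. The Kdr probe with the higher mean spans 1.18 and the Plvap probe 0.35 over the 7 arrays, against 8.74 and 3.31 for their second probes, while the 2 Etv2 probes span 5.83 and 4.83.

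Tek and Tie1, the angiopoietin receptor and its partner, and Ptprb, the phosphatase that restrains them, were well above background on the 5 arrays of E8.5 and E9.5 and on neither of E11.5. Tie1 was 2.18-fold higher in gated than in non-gated cells and 2.77-fold higher than in GFP-negative E9.5 cells. Ptprb was 3.57-fold above non-gated cells and 1.99-fold above GFP-negative cells, just short of the limit. All Ptprb values rest on 1 probe, since its other probes were well above background on no array. Tek did not pass 2-fold in any comparison within a stage. In the gate all 3 were lower at E11.5 than at E9.5, by at least 7.26-fold for Tek, 5.70-fold for Tie1 and 17.8-fold for Ptprb.

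Of the other receptors, Aplnr and Ramp2 were higher in the E9.5 gate against both other sorts. Aplnr, the apelin receptor that guides early mesoderm and vein endothelium, stood at 2.77 and 1.87 in GFP-positive and GFP-negative E8.5 cells, at 1.5, 0.08 and 0.36 in gated, non-gated and GFP-negative E9.5 cells, and at -1.53 and -1.07 in gated and non-gated E11.5 cells. The gate of E9.5 was 2.68-fold above non-gated and 2.21-fold above GFP-negative cells. Ramp2, the accessory protein that makes Calcrl a receptor for adrenomedullin, stood at 1.15 and 0.32 in GFP-positive and GFP-negative E8.5 cells, at 1.12, 0.10 and -0.52 in gated, non-gated and GFP-negative E9.5 cells, and at 1.76 and 0.01 in gated and non-gated E11.5 cells. Ramp2 was not lower at E11.5 in gated cells, and it was 3.38-fold higher in gated than in non-gated cells of that stage. Calcrl itself was well above background on the 2 gated arrays alone, at -4.01 at E9.5 and -3.09 at E11.5, and in gated cells of E11.5 it was at least 3.85-fold above non-gated cells. Adm, which encodes their ligand adrenomedullin, was lower in the gate at both stages, at -3.10 and -1.63 in gated and non-gated E9.5 cells and at -4.0 and -0.72 in gated and non-gated E11.5 cells.

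She, an adaptor protein made in vessels, changed side between stages. Its level was -1.02 and -2.56 in GFP-positive and GFP-negative E8.5 cells, -0.81, -2.71 and -2.17 in gated, non-gated and GFP-negative E9.5 cells, and -3.92 and -2.45 in gated and non-gated E11.5 cells. Gated cells were 3.73-fold above non-gated cells at E9.5 and 2.75-fold below them at E11.5. Eng, a coreceptor for transforming growth factor beta, was nearly level at -1.89 and -1.63 in GFP-positive and GFP-negative E8.5 cells, -2.15, -1.96 and -2.04 in gated, non-gated and GFP-negative E9.5 cells, and -2.11 and -2.32 in gated and non-gated E11.5 cells. The remaining 4 genes of this group had levels between -5.53 and -0.40 over the 7 arrays, values not well above background included. Among them Rasip1, needed for vessel lumens to open, was 2.61-fold higher in GFP-positive E8.5 cells, and S1pr1, the receptor for sphingosine 1-phosphate, was 2.25-fold lower in non-gated than in GFP-negative E9.5 cells. At E11.5 S1pr1 was at least 2.86-fold lower in gated than in non-gated cells. Robo4, a guidance receptor of endothelium, and Nos3, its nitric oxide synthase, passed 2-fold in no comparison within a stage.

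Cldn5 had the largest fold of the junction and surface genes between gated and the other E9.5 sorts, on the probes used in the counts. Cldn5, the tight junction claudin of endothelium, stood at -0.97 and -2.02 in GFP-positive and GFP-negative E8.5 cells, at 0.08, -2.25 and -1.37 in gated, non-gated and GFP-negative E9.5 cells, and at -2.37 and -2.81 in gated and non-gated E11.5 cells. The E9.5 gate was 5.0-fold above non-gated and 2.73-fold above GFP-negative cells. Cdh5, VE-cadherin of the adherens junction, was well above background on the 5 arrays of E8.5 and E9.5, with levels from -0.03 to 1.17, and passed 2-fold in no comparison within a stage. At E11.5 it was well above background on neither array, so that it was at least 43.1-fold lower in gated cells of E11.5 than of E9.5 and at least 47.9-fold lower in non-gated cells. Esam, another junction protein, stood at 0.44 and -0.95 in GFP-positive and GFP-negative E8.5 cells, at -0.40, -0.71 and -1.84 in gated, non-gated and GFP-negative E9.5 cells, and at -3.35 and -4.75 in gated and non-gated E11.5 cells. It exceeded GFP-negative cells in all 3 GFP-positive sorts that could be set against them, by 2.61-fold at E8.5, 2.71-fold in the E9.5 gate and 2.19-fold in non-gated E9.5 cells.

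Pecam1 (CD31), an antigen widely used to find endothelium, passed 2-fold in no comparison within a stage. It stood at -1.73 and -1.55 in GFP-positive and GFP-negative E8.5 cells, at -1.48, -1.84 and -1.70 in gated, non-gated and GFP-negative E9.5 cells, and at -2.44 and -3.08 in gated and non-gated E11.5 cells. In non-gated cells it was 2.36-fold lower at E11.5 than at E9.5. Emcn, a sialomucin of veins and capillaries, stood at -3.67 and -3.17 in GFP-positive and GFP-negative E8.5 cells, at -1.08, -2.53 and -2.20 in gated, non-gated and GFP-negative E9.5 cells, and at -4.16 and -3.27 in gated and non-gated E11.5 cells. The E9.5 gate was thus its highest array, 2.74-fold above non-gated and 2.18-fold above GFP-negative cells. Icam2 was 2.34-fold higher, and Clec14a 2.20-fold higher, in non-gated than in GFP-negative E9.5 cells, and neither passed 2-fold between gated and GFP-negative cells. Icam2 is an adhesion molecule and Clec14a a lectin of endothelium, and Clec14a was 2.12-fold lower in gated than in non-gated E9.5 cells. A second Clec14a probe was well above background in non-gated E11.5 cells alone, at -3.81, so the E9.5 differences rest on 1 probe.

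Cd34, a sialomucin of endothelial and blood progenitors that mesenchymal cells also carry, stood at 1.20 and 1.42 in GFP-positive and GFP-negative E8.5 cells, at 1.87, 1.85 and 1.57 in gated, non-gated and GFP-negative E9.5 cells, and at -0.43 and 1.61 in gated and non-gated E11.5 cells. The single low array was thus the E11.5 gate, 4.13-fold below non-gated cells. A second Cd34 probe gave 1.22-fold in the same direction. Egfl7, a protein that endothelium secretes into the matrix, stood at 4.56 and 3.37 in GFP-positive and GFP-negative E8.5 cells, at 3.50, 2.64 and 2.19 in gated, non-gated and GFP-negative E9.5 cells, and at 1.88 and 1.35 in gated and non-gated E11.5 cells. It was 2.27-fold higher in GFP-positive E8.5 cells and 2.47-fold higher in gated than in GFP-negative E9.5 cells.

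Mmrn2, a matrix protein that binds Clec14a, stood at -1.74 and -2.17 in GFP-positive and GFP-negative E8.5 cells, at -0.05, -0.91 and -0.63 in gated, non-gated and GFP-negative E9.5 cells, and at -0.30 and -0.61 in gated and non-gated E11.5 cells. Vwf, the clotting factor stored in endothelium and platelets, stood at -0.48 and -1.13 in GFP-positive and GFP-negative E8.5 cells, at -1.62, -1.30 and -1.44 in gated, non-gated and GFP-negative E9.5 cells, and at -1.87 and -1.90 in gated and non-gated E11.5 cells. Mmrn2 passed 2-fold in none of the 7 comparisons, and neither did this Vwf probe. A second Vwf probe was 2.65-fold lower in non-gated cells of E11.5 than of E9.5. Thsd1, a thrombospondin-domain protein of vessels, stood at -2.50 and -3.17 in GFP-positive and GFP-negative E8.5 cells, at -2.02, -2.66 and -2.64 in gated, non-gated and GFP-negative E9.5 cells, and at -3.51 and -3.56 in gated and non-gated E11.5 cells, 2.82-fold lower in gated cells of E11.5 than of E9.5. Plvap, which forms the diaphragms of fenestrated capillaries, lay between -1.33 and -0.98 on all 7 arrays with the probe of higher mean: -1.17 and -1.33 in GFP-positive and GFP-negative E8.5 cells, -0.98, -1.15 and -0.99 in gated, non-gated and GFP-negative E9.5 cells, and -1.14 and -1.32 in gated and non-gated E11.5 cells. On its second probe the E9.5 gate was the highest array at 0.76, which was 4.31-fold above non-gated cells and 8.10-fold above GFP-negative E9.5 cells.

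The scavenger receptors of lymphatic and sinusoidal endothelium were not well above background on 2 to 4 of the 7 arrays. Lyve1, the hyaluronan receptor of lymphatic endothelium and of some macrophages, was well above background on 3 arrays: at 0.56 in GFP-negative E8.5 cells, and at -2.87 and -4.33 in gated and non-gated E9.5 cells. In GFP-positive E8.5 cells it was at least 50.6-fold lower than in GFP-negative cells, the largest fold of any member within a stage. Of the 12 macrophage genes, 8 were well above background in GFP-positive and 7 in GFP-negative E8.5 cells. None of the 8 measured passed 2-fold, beside 7.03% of all genes higher and 6.08% lower. The summed signal of the 12 was 16.95 times the 75th percentile in GFP-positive and 15.6 times in GFP-negative E8.5 cells. Mrc1, a receptor that often accompanies Lyve1 on macrophages, was well above background in neither. The part of macrophages in the Lyve1 difference was not tested. Stab1 was 2.94-fold higher in gated than in GFP-negative E9.5 cells, and Stab2 was well above background on the 3 arrays of E9.5 alone, with no difference past 2-fold between them.

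Genes of the same pathways outside the 39 were read from lists chosen by function. Of 15 other endothelial transcription factors, 6 (Foxc1, Foxc2, Foxo1, Hhex, Nfatc1 and Bcl6b) were higher in gated than in non-gated E9.5 cells and 1 (Ets2) was lower. Over all genes 5.14% were higher and 9.37% lower in that pair. Against GFP-negative cells 6 of the 15 were higher (Gata2, Foxo1, Hhex, Nfatc1, Bcl6b and Hlx) and 0 lower, beside 5.67% and 6.41% of all genes. Hhex, a homeobox gene of early endothelium and of endoderm, stood at 0.70, -1.26 and -1.95 in gated, non-gated and GFP-negative E9.5 cells, 3.91-fold and 6.30-fold higher in the gate, and it was 11.7-fold lower in gated cells of E11.5. Foxc1 and Foxc2 are also genes of kidney and body wall mesenchyme. The 13 genes of arterial and venous identity were mixed: 3 (Notch1, Jag1 and Hey1) were higher and 1 (Gja5) lower in gated than in non-gated E9.5 cells, with a median of -0.05. The shares over all genes were again 5.14% and 9.37%.

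The ligand and coreceptor genes that passed 2-fold at E11.5 were all lower in gated cells. Of 12 genes for VEGF, angiopoietin and apelin ligands, coreceptors and adrenomedullin, 0 were higher and 7 (Vegfc, Vegfd, Pgf, Angpt1, Angpt2, Angptl4 and Adm) lower in gated than in non-gated E11.5 cells, with a median of -1.51. Over all genes 10.5% were higher and 9.42% lower there. At E9.5, 1 (Apln) was higher and 3 (Vegfc, Vegfd and Adm) were lower in gated than in non-gated cells, beside 5.14% and 9.37% of all genes. Vegfc, the ligand of Flt4, stood at 0.62 and 2.17 in gated and non-gated E9.5 cells, where Flt4 stood higher in the gate. Vegfa, the ligand of Kdr, lay between 3.56 and 4.36 on all 7 arrays and passed 2-fold in no comparison.

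Markers of other cells the sorts could hold were given the same count. Over all genes 5.14% were higher and 9.37% lower in the E9.5 gate against non-gated cells. In the E9.5 gate against non-gated cells, 1 of 12 measured red cell genes (Alas2) was higher and 6 were lower, 1 of 13 measured genes of haematopoietic progenitors (Lyl1, which is also active in endothelium) was higher and 3 were lower, and 0 of 10 measured macrophage genes were higher and 1 lower. The platelet list had 2 of 7 higher (Ppbp and Clec1b) and 0 lower, with a summed signal of 5.73 in gated and 4.87 in non-gated cells in units of the 75th percentile. Of the 13 genes of haematopoietic progenitors, 10 were well above background in the gate and 13 in non-gated cells. Runx1 and Gfi1b, which mark the start of definitive blood and of red cells, were among those not well above background in the gate. The mural list had 2 of 12 higher (Rgs5 and Des) and 1 lower (Pdgfrb). Of 8 sort and tissue markers, 5 were higher in the same gate: Osr1, Itga8 and the nephron progenitor markers Six2, Pax2 and Wt1. Pdgfra was lower, and Eya1 and Foxd1 of that list did not pass 2-fold. The part of any of these cells in the members' differences was not tested.

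Promoters were read for the members that have an entry in the RefSeq table of build GRCm38.p6, 250 bases before to 50 after the annotated start. It held 26 windows of 21 of the 39 members. The core letters of an ETS site (CGGAAG or AGGAAG, either strand) were in 16 of the 26 windows, or 61.5%, against 46.5% of 32851 windows of the same length. For a SOX core (ACAAT) the shares were 26.9% and 31.0%, for a GATA core (AGATAA) 11.54% and 11.18%, and for the E-box of Tal1 complexes (CAGATG) 23.1% and 17.2%, again on either strand. These are matches of letters, not sites shown to be bound, the 2 ETS motifs differ in their first letter alone, and no motif contains another. Among the 12 members higher in the E9.5 gate against both other sorts, Tie1, Flt1 and Emcn have windows with more than 1 ETS match, and they are printed for that reason, a choice made after the levels were known. Capitals mark the ETS matches (CTTCCT and CTTCCG on the opposite strand). Tie1 is at chr4:118489800-118490099, minus strand, Flt1 at chr5:147725962-147726261, minus strand, and Emcn at chr3:137340828-137341127, plus strand, each read 5′ to 3′ in the direction of the gene:
Tie1: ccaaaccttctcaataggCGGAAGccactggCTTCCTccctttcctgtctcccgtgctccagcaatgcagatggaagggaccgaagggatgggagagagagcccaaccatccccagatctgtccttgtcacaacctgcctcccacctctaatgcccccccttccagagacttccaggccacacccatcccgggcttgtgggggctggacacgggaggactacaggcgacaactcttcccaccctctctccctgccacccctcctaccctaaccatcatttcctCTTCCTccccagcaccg
Flt1: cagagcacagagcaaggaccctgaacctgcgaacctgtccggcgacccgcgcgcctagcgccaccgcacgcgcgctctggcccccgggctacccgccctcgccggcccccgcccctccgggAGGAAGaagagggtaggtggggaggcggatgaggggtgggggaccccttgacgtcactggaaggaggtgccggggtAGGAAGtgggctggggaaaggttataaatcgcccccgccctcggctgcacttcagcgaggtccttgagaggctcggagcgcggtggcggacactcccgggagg
Emcn: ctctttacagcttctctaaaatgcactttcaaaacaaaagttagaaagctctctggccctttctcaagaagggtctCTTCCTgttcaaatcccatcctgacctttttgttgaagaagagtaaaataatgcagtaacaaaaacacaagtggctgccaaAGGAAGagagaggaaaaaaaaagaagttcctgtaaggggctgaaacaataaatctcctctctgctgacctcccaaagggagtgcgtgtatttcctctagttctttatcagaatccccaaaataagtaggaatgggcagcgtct
Tie1 held 3 matches and Flt1 and Emcn 2 each. In the gate of E9.5 Tie1 was 2.18-fold, Flt1 3.78-fold and Emcn 2.74-fold above non-gated cells. Of the same 12 members Cldn5 and Flt4 had windows with 0 ETS matches, and they were 5.0-fold and 4.79-fold above non-gated cells.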

How the data were processed

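RNA of 7 sorted populations was amplified with a whole-transcriptome kit and hybridised to 1 Cy3 array each, per the labels. The deposited intensity of each spot is Feature Extraction's processed signal (version 10.7.3.1, per the submitters' processing notes): background-subtracted and detrended on the linear scale, with surrogate values for the dimmest spots, per the file headers. The deposited series table held the same intensity for all 62976 spots per array, with column medians from 30.6 to 51.3.

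Spots of a probe were averaged on the log2 scale after leaving out flagged spots, the log2 of the array's 75th percentile over non-control spots was subtracted, and each gene was represented by whichever of its probes had the greatest average level. Of 55681 probes 20323 had no gene name here, and 26425 were named through RefSeq accessions. Among the members, 29 had 1 probe and 10 several. With 1 array a population there is no test, and precision is limited by that number of arrays. Python 3.11.15 (pandas 2.3.3, numpy 2.4.6) and, for normexp, limma 3.58.1 in R 4.3.3 were used. The calculation was tested on simulated data with spot noise alone and changes planted in genes far above background. It did not cover values set to a bound or variation between arrays.

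All 7 levels are given for the 19 members well above background on all arrays. For other members with at least a 4-fold difference within a stage, the levels well above background are given. The remaining members are given by ranges and called values. The members and lists were chosen with earlier results of these data known. Alternatives were quantile normalization, normexp, unscaled signal, the mean of a gene's probes, detection on both arrays, no filter and, added after seeing the data, the probe with the widest range.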

Additional observations from a re-analysis of the deposited data

Results flagged for a closer look

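She, the adaptor of the vessel wall, lay on opposite sides of the gate at the 2 stages: gated minus non-gated cells was 1.90 at E9.5 and -1.46 at E11.5 on the log2 scale. Each value is a difference between 2 arrays, and the difference between the stages was not tested.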

How the results depend on the processing

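No paired analysis was possible because each population had 1 array and the labels carry no replicate numbers, and for the same reason the slide as a block was not run. Of the 119 member differences past 2-fold, all kept their direction under quantile normalization, normexp, unscaled signal, the mean of a gene's probes and no filter, and 109, 59, 110, 110 and 119 of them stayed past 2-fold. With detection required on both arrays 84 could be computed and all kept their direction, and with the probe of widest range 115 of 116 did, the exception being Clec14a in non-gated E11.5 cells against E9.5, at 0.81.

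Normexp, which adds an offset of 50, shrank most counts, and the calls over all genes too. It left 6 members higher with a median of 0.084 at E8.5, 9 higher and 1 lower with a median of 0.34 for E9.5 gated against non-gated cells, 8 higher for gated against GFP-negative cells, 2 higher and 1 lower for non-gated against GFP-negative cells, 2 higher and 2 lower at E11.5, a median of -0.83 for gated cells of E11.5 against E9.5, and 9 lower with a median of -0.52 for non-gated cells. Quantile normalization gave a median of 0.87 for E9.5 gated against non-gated cells, 4 lower for non-gated against GFP-negative cells, 1 higher in gated cells of E11.5 against E9.5, and a median of -0.84 for non-gated cells. Unscaled signal gave a median of 0.43 for E9.5 gated against GFP-negative cells, 6 lower for non-gated against GFP-negative cells, and a median of 0.10 at E11.5. The mean of all probes gave a median of 0.13 at E8.5 and 1 lower for E9.5 gated against non-gated cells. Detection on both arrays left 1 lower at E8.5, 3 higher at E11.5, and across stages 15 lower with a median of -1.55 in gated cells and 10 lower with a median of -0.82 in non-gated cells. With no filter 11 were higher at E11.5. The probe of widest range gave 1 lower with a median of 0.86 for E9.5 gated against non-gated cells, a median of 1.09 against GFP-negative cells, and -2.51 for gated cells of E11.5 against E9.5. The cause of these shifts was not tested.

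Over all genes, scaling moved the split of higher and lower calls. It was 1212 and 2211 for E9.5 gated against non-gated cells (1945 and 1830 after quantile normalization), 2033 and 1227 for non-gated against GFP-negative cells (1517 and 2043, and 1255 and 1755 unscaled), 2281 and 2044 at E11.5 (1692 and 2303, and 1488 and 2731 unscaled), 1305 and 2560 for the gate across stages (1784 and 2088), 1508 and 5247 for non-gated cells across stages (2611 and 2323), 1413 and 1222 at E8.5 (1835 and 1045 unscaled), and 1217 and 1376 for E9.5 gated against GFP-negative cells (834 and 1884 unscaled). Normexp left fewer calls over all genes, 597 higher and 515 lower at E8.5. For E9.5 gated cells the calls were 344 and 321 against non-gated cells and 403 and 472 against GFP-negative cells. Non-gated against GFP-negative cells gave 288 and 391, and E11.5 gave 744 and 830. Across stages the gate gave 460 and 561, and non-gated cells 730 and 1012. Levels near background limit 20 of the 39 members, which were not well above it on every array.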

Other observations

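Over the 7 arrays, the 10 genes outside the list whose levels followed the members' mean profile most closely, among 20079 genes well above background on at least 4 arrays, were Arfrp1, Egln3, Rasgrp3, Bcl6b, Cdr2, Birc6, Gemin4, Ddc, Rpp30 and Vstm2l. Pearson's r lay between 0.97 and 0.99, over points that share the array's scaling, and is a description only. It takes no account of how far a gene moved. Birc6 lay between 1.36 and 2.05 on the 7 arrays, and Rasgrp3 between -7.16 and -1.96. Bcl6b stood at -1.21 and -1.06 in GFP-positive and GFP-negative E8.5 cells, at -0.78, -1.87 and -1.98 in gated, non-gated and GFP-negative E9.5 cells, and at -3.11 and -3.39 in gated and non-gated E11.5 cells. It is known as a transcriptional repressor of endothelial cells.

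Members read from probes with at least 50% GC spanned less over the arrays: a median range of 1.59 for 9 probes, against 4.60 for 30 probes under 50% GC. Over all gene-named probes well above background on at least 1 array the medians were 1.12 (5558 probes) and 1.63 (26227 probes). Within the 9 probes the range ran from 0.35 to 4.47, and within the 30 from 1.42 to 8.78. The split at 50% was chosen after the levels had been seen. The flat probes of Kdr and Plvap both have 55% GC, and so does the Aplnr probe, which spans 4.29. The part of GC in these ranges was not tested.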
